A study of Homo sapiens with 6 samples.

Results

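The genes described here are the aminoacyl-tRNA synthetases of the cytosol and of the mitochondria, together with the scaffold proteins AIMP1 and AIMP2. They were chosen by gene symbol (a letter for the amino acid followed by ARS, ARS1 or ARS2, plus EPRS1, FARSA, FARSB, AIMP1 and AIMP2) with at least 10 reads in at least 3 of the 6 libraries. The rule uses no measured difference between the groups, but it was set with earlier results of these data known. The rule found 39 of the 16655 genes of the table, namely 20 cytosolic synthetase genes, 17 mitochondrial ones and the 2 scaffolds. All 39 also passed the filter on low counts that preceded the test, with at least 141 reads for every gene in every library.

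RNA was sequenced from HEK-293T cells 24 h after lipofection. This line derives from human embryonic kidney and expresses the large T antigen of SV40. The GFP group (n = 3) received the empty plasmid pEGFP-C1, and the RfA1 group (n = 3) received the same plasmid coding for GFP-tagged RfA1, a reflectin protein of squid that forms condensates in the cytoplasm. Transfection was transient, and a sort for transfected cells is not mentioned in the labels or the methods, so cells that took up no plasmid may be included. Neither the labels nor the methods say that the replicates were separate cultures, so the p-values measure the spread between these samples, which may be technical. The comparison asks how the transcripts of the tRNA charging enzymes differ between cells with RfA1 and cells with GFP alone.

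The libraries held 10272304 to 11566287 reads assigned to genes. Libraries of the same group were further apart than counting noise allows (chi-square per degree of freedom 1.89 to 13.4). RfA1 replicate 2 stood apart from the other RfA1 libraries. On the first principal component, which held 44.6% of the variance, RfA1 replicates 1 and 3 scored -16.5 and -22.0, whereas RfA1 replicate 2 scored 10.2 and lay beside GFP replicates 2 and 3 at 18.2 and 12.4. The libraries lay in nearly the same order by GC content. The median level of genes in the lowest quartile of GC content relative to those in the highest was 0.27 and 0.34 on the log2 scale in RfA1 replicates 1 and 3, -0.20 in RfA1 replicate 2 and -0.30 to 0.07 in the GFP libraries. Results that rest on this library are therefore given with and without it. All 8 markers of HEK-293T cells were detected, at mean levels from 5.12 TPM (PAX2) to 658 TPM (VIM), and 0 passed the test between the groups. Without RfA1 replicate 2, 2 of the 8 passed, LIN28B higher (log2 fold change 0.36) and KRT18 lower (-0.26) in RfA1, with an adjusted p of 0.00680 and 0.0428 by edgeR. In that setting 8.56% of all tested genes were higher and 11.5% lower. With all libraries and the GC correction described further on, 0 of the 8 passed. The log2 fold changes were then 0.073 for LIN28B and 0.051 for KRT18. Of 11 markers of blood, liver, endothelium, muscle and skin, 9 were listed in the table, at mean levels of at most 0.64 TPM. Their summed level was 1.20 to 3.48 TPM in GFP and 0.74 to 1.84 TPM in RfA1. In bulk samples, fewer cells of a type and less RNA per cell cannot be told apart.

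Aminoacyl-tRNA synthetases join each amino acid to its tRNAs, which then carry it to the ribosome. They fall into class I and class II by the fold of their catalytic domain, and most amino acids have a separate nuclear gene for the enzyme of the cytosol and for the enzyme that is imported into mitochondria. In the cytosol of animal cells several synthetases are held with AIMP1 and AIMP2 in the multisynthetase complex. When amino acids are scarce or the endoplasmic reticulum is under stress, the transcription factor ATF4 is known to induce many cytosolic synthetase genes.

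Transcripts of cytosolic synthetases were present at higher levels than those of mitochondrial synthetases in all 6 libraries. Levels are compared between genes in TPM, which sum to a fixed total and account for transcript length. Over the 6 libraries the median gene of the cytosolic set had a mean level of 127 TPM and the median gene of the mitochondrial set 27.8 TPM, a ratio of 4.55, against 14.8 TPM for the median of the 13002 genes tested. By mean level, 16 of the 20 cytosolic genes lay above every mitochondrial gene, and 16 of the 17 mitochondrial genes lay above the median of all genes. Both counts include near ties. NARS1 had a mean of 81.6 TPM against 80.8 TPM for IARS2, and lay below it in GFP replicate 2 (66.9 against 68.6 TPM). PARS2 had a mean of 14.98 TPM, close to the median of all genes.

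YARS1, the tyrosyl-tRNA synthetase, had the highest level of all, with 380, 345 and 332 TPM in GFP and 371, 336 and 368 TPM in RfA1. SARS1, the seryl-tRNA synthetase, followed with 225, 210 and 214 TPM in GFP and 229, 204 and 210 TPM in RfA1. KARS1, the lysyl-tRNA synthetase, whose gene also gives the mitochondrial enzyme, had 195, 198 and 194 TPM in GFP and 220, 204 and 208 TPM in RfA1. YARS1 was above every other member in each library, whereas the ranges of SARS1 and KARS1 overlapped. Between 100 and 200 TPM were the mean levels of FARSA (phenylalanine, catalytic subunit), GARS1 (glycine, also the mitochondrial enzyme), TARS1 (threonine), MARS1 (methionine), VARS1 (valine), IARS1 (isoleucine), QARS1 (glutamine), AARS1 (alanine), WARS1 (tryptophan), EPRS1 (glutamate and proline in a fused protein) and FARSB (phenylalanine, second subunit). RARS1 (arginine), NARS1 (asparagine) and HARS1 (histidine) had mean levels of 98.0, 81.6 and 77.0 TPM.

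The lowest cytosolic genes had levels like those of the highest mitochondrial genes. CARS1, the cysteinyl-tRNA synthetase, had 71.3, 63.8 and 67.3 TPM in GFP and 59.5, 57.9 and 65.0 TPM in RfA1. LARS1, the leucyl-tRNA synthetase, had 66.5, 51.4 and 55.6 TPM in GFP and 72.5, 51.0 and 67.8 TPM in RfA1. The ranges of CARS1 and LARS1 overlapped.

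Among the mitochondrial enzymes, IARS2 (isoleucine) was the highest, with 82.0, 68.6 and 72.4 TPM in GFP and 94.5, 75.3 and 91.7 TPM in RfA1. TARS2 (threonine) had 62.8, 59.6 and 60.5 TPM in GFP and 57.9, 55.6 and 59.8 TPM in RfA1. IARS2 was above TARS2 in every library. Lower levels were those of SARS2 (serine), CARS2 (cysteine), EARS2 (glutamate), AARS2 (alanine), VARS2 (valine), RARS2 (arginine), YARS2 (tyrosine), LARS2 (leucine), HARS2 (histidine), WARS2 (tryptophan) and NARS2 (asparagine), with mean levels that fell from 57.1 TPM to 17.0 TPM.

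The lowest of all were FARS2, PARS2 and MARS2, the mitochondrial enzymes for phenylalanine, proline and methionine. FARS2 had 18.1, 12.6 and 15.8 TPM in GFP and 16.2, 12.5 and 15.7 TPM in RfA1. PARS2 had 15.96, 13.8 and 15.5 TPM in GFP and 13.6, 14.3 and 16.8 TPM in RfA1, and MARS2 had 16.3, 12.2 and 13.5 TPM in GFP and 14.9, 12.4 and 16.4 TPM in RfA1. The ranges of the 3 genes overlapped, so their order is not larger than the spread between libraries.

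**Figure D1:**
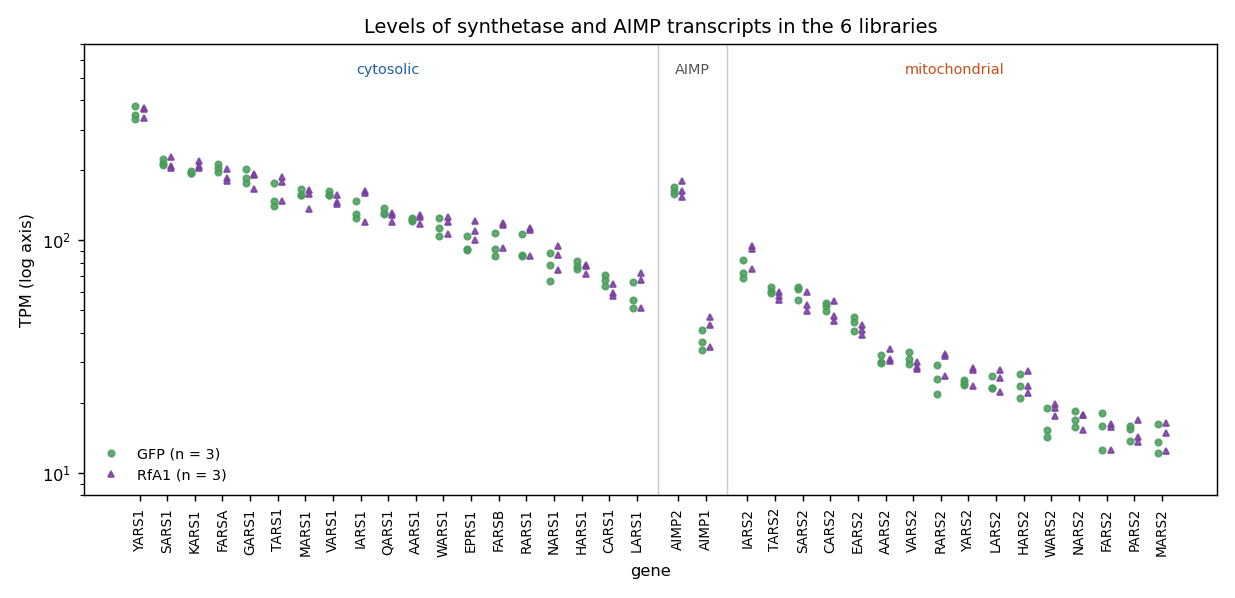
Level of 37 of the transcripts in TPM (log axis) in the 3 GFP libraries (circles) and 3 RfA1 libraries (triangles), ordered by mean level within the cytosolic enzymes, the AIMP scaffolds and the mitochondrial enzymes. The cytosolic genes run from 355 TPM for YARS1 to 60.8 TPM for LARS1 and the mitochondrial genes from 80.8 TPM for IARS2 to 14.3 TPM for MARS2, while circles and triangles of a gene overlap or lie close together.

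The same order held amino acid by amino acid. In 18 pairs of a cytosolic and a mitochondrial gene for the same amino acid, the cytosolic transcript had the higher TPM in every library, with a median ratio of 3.89. FARS2 was paired with both FARSA and FARSB, and EPRS1 with both EARS2 and PARS2, so the pairs are not all separate comparisons. The largest mean ratios were those of YARS1 over YARS2 (14.0, from 13.1 to 15.1 over the libraries), FARSA over FARS2 (13.3, from 11.5 to 16.3) and MARS1 over MARS2 (11.1, from 9.98 to 12.96). Among the smallest was that of CARS1 over CARS2 (1.28, from 1.06 to 1.44). Summed over the genes of the set, cytosolic synthetases took 2768 ± 140 TPM in GFP cells and 2826 ± 176 TPM in RfA1 cells (SD, n = 3), and mitochondrial synthetases took 583 ± 23.9 TPM and 597 ± 23.3 TPM. In both sets the difference between the groups was smaller than the spread within a group.

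Subunits that work together were not at equal levels. FARSA and FARSB form the cytosolic phenylalanyl-tRNA synthetase in equal numbers, and FARSA had 1.97 times the TPM of FARSB on average, with ratios of 1.98, 2.39 and 2.14 in GFP and 1.60, 2.18 and 1.51 in RfA1. RfA1 replicates 1 and 3 thus had the lowest ratios and RfA1 replicate 2 lay among the GFP libraries. AIMP2, which holds the multisynthetase complex together, had 163, 158 and 170 TPM in GFP and 154, 163 and 180 TPM in RfA1. AIMP1, the other scaffold chosen by the rule, had 41.0, 33.9 and 36.4 TPM in GFP and 43.4, 34.7 and 47.0 TPM in RfA1. For both scaffolds the groups overlapped, and AIMP2 was at 3.56 to 4.70 times the TPM of AIMP1.

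No synthetase or AIMP transcript passed the test between RfA1 and GFP cells. Changes are given for CPM (reads scaled to a common TMM-normalized library size of 1000000) as the log2 fold change of RfA1 over GFP with its standard error (SE). The test was the quasi-likelihood test of edgeR, adjusted after Benjamini and Hochberg over all genes tested. Of the 39 genes, 0 had an adjusted p under 0.05, against 0.0769% of all tested genes, and DESeq2 also called 0. At an unadjusted p under 0.05, 0 were higher and 1 was lower, where 7.3% of all tested genes were higher and 6.64% lower. Log2 fold changes ran from -0.22 (CARS1) to 0.17 (RARS2), with 16 positive and 23 negative values and adjusted p from 0.290 to 0.992. The 95% intervals of the 39 log2 fold changes all lay between -0.46 and 0.40, and 38 of them covered 0. The intervals were derived from the same test, so the 1 that left out 0 restates the 1 unadjusted p under 0.05. An adjusted p above the threshold does not show that the groups were equal, and these intervals are the range of differences that 3 libraries against 3 leave possible.

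**Figure D2:**
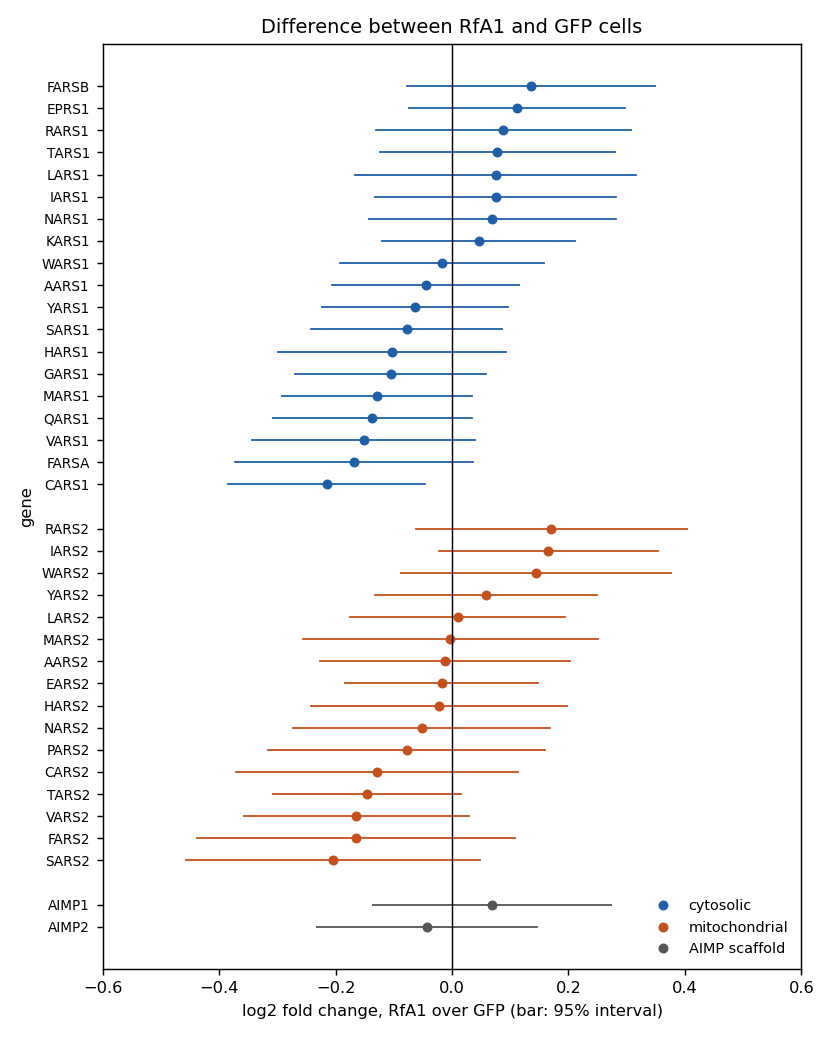
Log2 fold change of RfA1 over GFP (points) with the 95% interval (bars) for 37 of the genes, from 3 libraries a group, ordered within each set. CARS1 at -0.22 is the gene whose interval lies wholly below 0, and none lies wholly above 0.

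The log2 fold changes of the compartments covered nearly the same range. The median log2 fold change was -0.031 over the cytosolic genes (range -0.22 to 0.14), -0.017 over the mitochondrial genes (range -0.20 to 0.17) and -0.0024 over all tested genes. Of the cytosolic genes 9 had positive and 11 negative values, and of the mitochondrial genes 6 and 11. Class I enzymes had a median of -0.0098 and class II enzymes of -0.049. The 10 members of the multisynthetase complex in the set (among them EPRS1, IARS1, KARS1, LARS1, MARS1, QARS1, RARS1, AIMP1 and AIMP2) had a median of 0.057 with 7 positive values, and the 12 cytosolic genes outside it had a median of -0.070 with 3 positive values. After the GC correction described further on, these medians were -0.023 and -0.0040. The signs also depended on the unit, since a limma fit to log2(TPM + 1) gave 23 positive and 16 negative values and moved the median of all tested genes to 0.045. That fit too called 0 of the 39 genes at an adjusted p under 0.05, where it called 4 of the 13002 tested genes.

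CARS1, the cysteinyl-tRNA synthetase, had the smallest p of the set. Its level was 115, 109 and 111 CPM in GFP and 91.2, 98.0 and 99.4 CPM in RfA1, so that every RfA1 library was below every GFP library. The log2 fold change was -0.22 (SE 0.077, adjusted p = 0.290 by edgeR). The log2 fold change kept its sign when each library was left out in turn, from -0.24 to -0.18. In TPM, given above, the groups of CARS1 overlapped, because RfA1 replicate 3 lay above GFP replicate 2.

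In CPM the libraries of the groups did not overlap for 6 genes, all lower in RfA1, whereas 9.86% of all tested genes were higher and 8.01% were lower without overlap. The 6 were CARS1, GARS1, MARS1, QARS1, SARS1 and, of the mitochondrial enzymes, TARS2, and the other 33 overlapped. In TPM none of these 6 kept its groups apart, and the groups of KARS1 alone did not overlap, with higher values in RfA1. In that unit 9.29% of all tested genes were higher and 6.15% lower without overlap.

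TARS2, the mitochondrial threonyl-tRNA synthetase, had 107, 107 and 106 CPM in GFP and 93.6, 99.0 and 95.9 CPM in RfA1 (log2 fold change -0.15, SE 0.074). QARS1, the glutaminyl-tRNA synthetase, had 201, 226 and 210 CPM in GFP and 196, 195 and 188 CPM in RfA1 (-0.14, SE 0.078). MARS1, the methionyl-tRNA synthetase, had 303, 301 and 292 CPM in GFP and 276, 261 and 282 CPM in RfA1 (-0.13, SE 0.074). In these 3 genes all RfA1 libraries were below all GFP libraries, and the adjusted p by edgeR were 0.393, 0.436 and 0.441.

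In 4 other genes with small p, RfA1 replicate 2 lay with the GFP libraries and the other RfA1 libraries lay outside them. FARSA had 236, 240 and 223 CPM in GFP and 197, 236 and 189 CPM in RfA1 (log2 fold change -0.17, SE 0.094). SARS2, the mitochondrial seryl-tRNA synthetase, had 66.2, 78.8 and 74.8 CPM in GFP and 56.2, 75.1 and 59.5 CPM in RfA1 (-0.20, SE 0.115). VARS2, the mitochondrial valyl-tRNA synthetase, had 79.1, 74.3 and 75.5 CPM in GFP and 64.0, 75.3 and 65.0 CPM in RfA1 (-0.16, SE 0.089). IARS2, the mitochondrial isoleucyl-tRNA synthetase, went the other way, with 192, 169 and 173 CPM in GFP and 211, 184 and 203 CPM in RfA1 (0.17, SE 0.086). The adjusted p of these 4 by edgeR were 0.427, 0.431, 0.417 and 0.404.

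**Figure D3:**
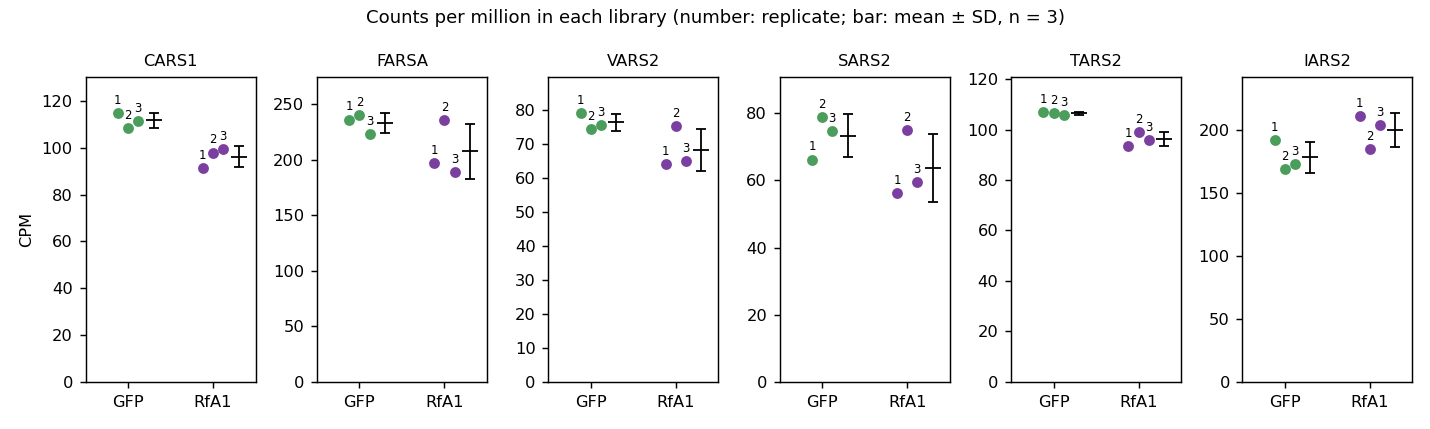
CPM of 6 genes in each library (points with replicate numbers) and the mean ± SD of each group (n = 3), on axes that start at 0. For CARS1 and TARS2 all RfA1 points lie below the GFP points, whereas for FARSA, VARS2, SARS2 and IARS2 RfA1 replicate 2 lies within the GFP points.

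Without RfA1 replicate 2, with 3 GFP and 2 RfA1 libraries, 7 of the 39 genes passed the test. CARS1 (log2 fold change -0.23, adjusted p = 0.0390 by edgeR), FARSA (-0.27, adjusted p = 0.0128), VARS1 (-0.24, adjusted p = 0.0227), CARS2 (-0.26, adjusted p = 0.0441), SARS2 (-0.34, adjusted p = 0.0126) and VARS2 (-0.24, adjusted p = 0.0378) were lower in RfA1. IARS2 was higher (0.22, adjusted p = 0.0415). Leaving out this library changed the counts of the whole table as well, and 8.56% of all tested genes were then higher and 11.5% lower. All 6 lower members had a transcript GC content above 49.6%, which is the median of the tested genes, and IARS2 had 43.8%. Leaving out any other library gave 0 calls among the members.

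The differences between the groups followed the GC content of the transcripts. Across the 39 genes, the log2 fold change and the GC content of 1 transcript per gene had a Pearson r of -0.83 and a Spearman rho of -0.84. The r was -0.87 over the cytosolic and -0.85 over the mitochondrial genes, and -0.47 over the 12917 tested genes with a GC content. All points share the same 6 libraries, and genes are not independent replicates, so these are descriptions. Of the 22 members above the median GC, 20 had a negative log2 fold change (median -0.091), and of the 17 at or below it 14 had a positive one (median 0.075). The members with the highest GC content were VARS1 (62.6%), FARSA (61.4%), SARS2 (61.2%) and VARS2 (60.2%), and among those with the lowest were AIMP1 (35.6%) and RARS1 (41.4%).

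The levels of the GC-poor members also differed between libraries of the same group. The summed level of the 17 GC-poor members was 1527, 1301 and 1364 TPM in GFP and 1627, 1340 and 1616 TPM in RfA1. GFP replicate 1 thus lay with RfA1 replicates 1 and 3, and RfA1 replicate 2 lay with GFP replicates 2 and 3. In TPM, the summed level of the members above the median GC did not show the opposite order. It was 2213, 2127 and 2123 TPM in GFP and 2125, 2052 and 2134 TPM in RfA1, highest in GFP replicate 1 and lowest in RfA1 replicate 2. The median log2 CPM of these members relative to the GFP mean was 0.014, 0.0068 and -0.015 in GFP. It was -0.11, -0.038 and -0.13 in RfA1, lowest in replicates 1 and 3. The GC-poor members had 0.14, -0.090 and -0.041 in GFP and 0.13, -0.038 and 0.15 in RfA1 by that measure. GFP replicate 1 was thus high in both sets. When each library's dependence on GC content was modelled and taken out as an offset, the r over the 39 genes was -0.22, and 0 of the members passed an adjusted p of 0.05 by edgeR, against 1.51% of all tested genes. CARS1 then had a log2 fold change of -0.18 (SE 0.061, adjusted p = 0.153 by edgeR), and 2 members, CARS1 and GARS1, both lower in RfA1, had an unadjusted p under 0.05, where 9.38% of all tested genes were higher and 6.74% lower. The correction takes out a GC dependence whatever its source, and a technical source cannot be told apart from a biological one here.

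**Figure D4:**
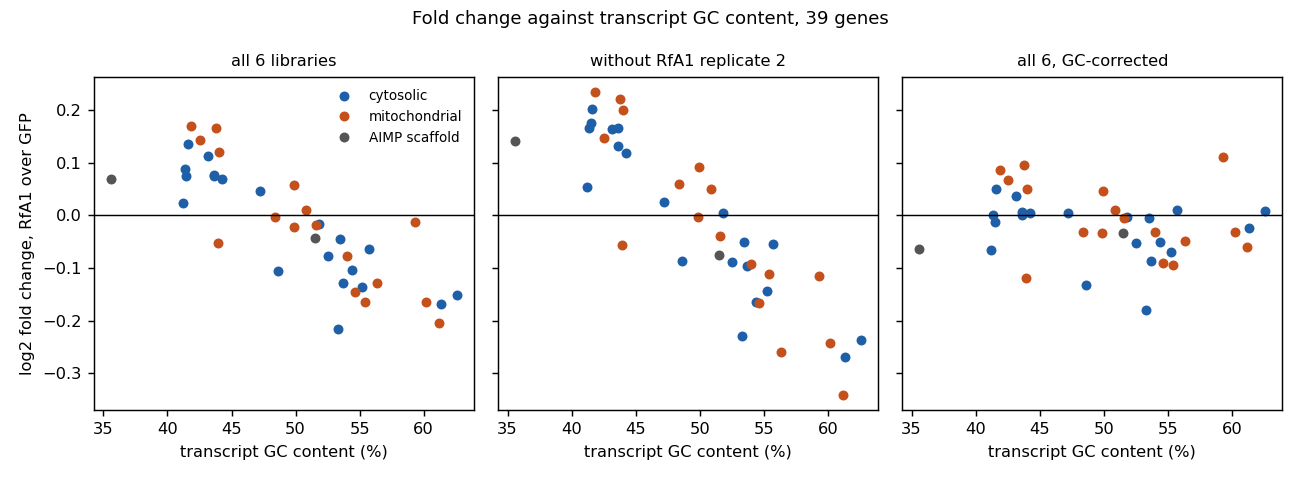
Log2 fold change of RfA1 over GFP against transcript GC content in percent for the 39 genes, with all 6 libraries, without RfA1 replicate 2, and with all 6 libraries after the GC correction. The points fall from left to right in the first panel (r = -0.83) and the second (r = -0.89) and lie near 0 in the third (r = -0.22).

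The remaining members chosen for their level or their role overlapped between the groups, apart from SARS1. SARS1 had 267, 263 and 260 CPM in GFP and 259, 253 and 236 CPM in RfA1 (log2 fold change -0.078, SE 0.075, adjusted p = 0.636). YARS1 had 621, 599 and 564 CPM in GFP and 578, 562 and 567 CPM in RfA1 (-0.063, SE 0.073, adjusted p = 0.701), and KARS1 had 246, 262 and 249 CPM in GFP and 265, 268 and 248 CPM in RfA1 (0.045, SE 0.076, adjusted p = 0.796). The highest transcripts of the set were also among those with the narrowest intervals.

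FARSB had 152, 126 and 128 CPM in GFP and 155, 134 and 156 CPM in RfA1 (log2 fold change 0.14, SE 0.097, adjusted p = 0.523), a value opposite in sign to that of its partner FARSA. Transcript GC content was 41.6% for FARSB and 61.4% for FARSA. After the GC correction the log2 fold changes were 0.050 for FARSB and -0.025 for FARSA. LARS1 had 214, 174 and 183 CPM in GFP and 223, 172 and 207 CPM in RfA1 (0.075, SE 0.110, adjusted p = 0.765). In FARSB and LARS1 the libraries with high values were GFP replicate 1 and RfA1 replicates 1 and 3.

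FARS2 had 18.5, 14.2 and 16.2 CPM in GFP and 15.2, 13.4 and 14.96 CPM in RfA1 (log2 fold change -0.16, SE 0.125, adjusted p = 0.546). PARS2 had 23.9, 21.7 and 23.8 CPM in GFP and 19.5, 22.4 and 23.9 CPM in RfA1 (-0.077, SE 0.109, adjusted p = 0.755). The SE of these low mitochondrial transcripts was wider than the 0.073 of YARS1. MARS2 had 32.2, 25.3 and 27.4 CPM in GFP and 28.1, 25.7 and 30.9 CPM in RfA1 (-0.0026, SE 0.116, adjusted p = 0.992). AIMP1 had 87.8, 76.4 and 80.3 CPM in GFP and 87.4, 76.7 and 92.2 CPM in RfA1 (0.068, SE 0.093, adjusted p = 0.747), and AIMP2 had 106, 108 and 114 CPM in GFP and 95.4, 111 and 112 CPM in RfA1 (-0.043, SE 0.086, adjusted p = 0.833). The signs of these small values should be read with their errors, which exceeded the values of PARS2, MARS2, AIMP1 and AIMP2.

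HARS1 and HARS2, the cytosolic and mitochondrial histidyl-tRNA synthetases, are paralogs that lie head to head, with 85 bases between their start sites in RefSeq. Because their sequences are similar, how the authors' counting treated reads that match both is not known here, and the levels of both are uncertain to that extent. The stretch that holds both start sites is shown at chr5:140691360-140691465 (- strand), build GRCh38.p14, with capitals from the start base of HARS2 to that of HARS1.
HARS1: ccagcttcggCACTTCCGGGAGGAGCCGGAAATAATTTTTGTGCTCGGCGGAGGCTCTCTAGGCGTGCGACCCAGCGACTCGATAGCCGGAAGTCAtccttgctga
The log2 fold changes were -0.10 (SE 0.089) for HARS1 and -0.022 (SE 0.101) for HARS2, and neither passed the test.

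Among the cytosolic genes, 12 belong to the synthetases that ATF4 is known to induce (AARS1, CARS1, EPRS1, GARS1, IARS1, LARS1, MARS1, NARS1, SARS1, TARS1, WARS1 and YARS1). Promoters from 250 bases before to 50 after the start site were given by RefSeq for 32 of the 39 members. The letters TGATGNAA, the core of the element bound by ATF4 with a C/EBP partner, were searched on both strands. They stood in 6 of the 16 cytosolic promoters (37.5%), in 1 of the 14 mitochondrial ones (YARS2), in 1.56% of the 10657 promoters of genes with enough reads and in 3.67% of all 27305 promoters of the RefSeq table. The 6 cytosolic promoters were all of ATF4-induced genes, of which 10 had a promoter sequence, and the match lay within 15 bases of the start site in 5 of them.

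The stretches that hold these 6 matches are printed from 5′ to 3′ on the strand of the gene, with the match in capitals, since they show the shared letters TTGCATCA or, in NARS1, their reverse complement. They lie, in build GRCh38.p14, at chr11:3057394-3057453 (- strand), chr9:92293668-92293727 (- strand), chr12:57488038-57488097 (+ strand), chr18:57621807-57621866 (- strand), chr5:33440935-33440994 (+ strand) and chr16:70289660-70289719 (- strand). The first 5 run from 30 bases before to 30 bases after the start site.
CARS1: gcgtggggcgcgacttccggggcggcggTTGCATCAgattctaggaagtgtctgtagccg
IARS1: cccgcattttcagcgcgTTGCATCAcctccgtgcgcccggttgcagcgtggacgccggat
MARS1: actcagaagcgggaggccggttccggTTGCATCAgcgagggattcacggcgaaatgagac
NARS1: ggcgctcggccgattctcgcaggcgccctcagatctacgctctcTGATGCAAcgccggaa
TARS1: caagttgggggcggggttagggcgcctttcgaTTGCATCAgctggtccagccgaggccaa
AARS1: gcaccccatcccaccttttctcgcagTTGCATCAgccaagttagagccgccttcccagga
A match is a description of the letters and was not tested for binding. The log2 fold changes of these 6 genes were -0.22 (CARS1), 0.075 (IARS1), -0.13 (MARS1), 0.069 (NARS1), 0.077 (TARS1) and -0.045 (AARS1), and 0 of them passed the test.

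As a set, the 12 ATF4-induced synthetases had a median log2 fold change of -0.031 and the 8 other cytosolic genes of -0.040. Of 18 other genes that ATF4 is known to induce, 0 had an adjusted p under 0.05 by edgeR, against 0.0769% of all tested genes. Their median log2 fold change was -0.055. At an unadjusted p under 0.05, 2 were higher (MTHFD2 and DDIT4) and 3 lower (CHAC1, PHGDH and NUPR1). At that threshold 7.3% of all tested genes were higher and 6.64% lower. CHAC1, which degrades glutathione, had the smallest p, with 29.2, 31.6 and 31.1 CPM in GFP and 24.9, 26.5 and 20.7 CPM in RfA1 (-0.35, SE 0.110, adjusted p = 0.254 by edgeR), and its groups did not overlap. Without RfA1 replicate 2, 6 of these 18 genes passed the adjusted p, where 8.56% of all tested genes were higher and 11.5% lower. MTHFD2 and PSAT1, enzymes of mitochondrial folate metabolism and of serine synthesis, were higher, and CHAC1, NUPR1, CEBPB and PHGDH were lower, with adjusted p from 0.00342 to 0.0477 by edgeR. With all libraries and the GC correction, none of these 6 genes passed (adjusted p from 0.147 to 0.873 by edgeR). Their log2 fold changes were then 0.16 (MTHFD2), 0.045 (PSAT1), -0.20 (CHAC1), -0.36 (NUPR1), 0.031 (CEBPB) and -0.059 (PHGDH). The transcript of ATF4 itself had a log2 fold change of -0.057 (SE 0.077). After the GC correction, DDIT4, an inhibitor of mTORC1 signalling, and SLC7A5, a transporter of large neutral amino acids, were higher in RfA1 (adjusted p = 0.00384 and 0.0305 by edgeR). These were 2 of the 18 genes, where 1.51% of all tested genes passed. Without the correction their log2 fold changes were 0.30 and 0.11 (adjusted p = 0.294 and 0.492 by edgeR).

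The 23 other genes of tRNA charging and delivery included elongation factors and the enzymes of mitochondrial glutaminyl-tRNA. Of these 23, 0 passed an adjusted p under 0.05 by edgeR, against 0.0769% of all tested genes. At an unadjusted p under 0.05, 0 were higher and 0 lower, where 7.3% of all tested genes were higher and 6.64% lower. The median log2 fold change of the 23 genes was 0.035. They had 16 positive and 7 negative values, against 6439 and 6563 over all tested genes. The list also held TARS3 and EEF1E1, whose symbols are not matched by the rule for the set. The smallest p was that of PTRH2, a peptidyl-tRNA hydrolase (log2 fold change 0.18, adjusted p = 0.414 by edgeR). Without RfA1 replicate 2, 4 of these genes were lower in RfA1 (EEFSEC, EEF1A2, EEF1D and TUFM), against 11.5% of all tested genes. With all libraries and the GC correction, 0 of the 23 passed, against 1.51% of all tested genes. Their median log2 fold change was then 0.0094, with 14 positive and 9 negative values. The median transcript GC content of the 23 genes was 46.1%, against 49.6% over all tested genes.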

How the data were processed

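RNA-seq libraries of HEK-293T cells with GFP (n = 3) or GFP-RfA1 (n = 3) were grouped by the sample labels. The authors deposited one table with estimated counts (made from reads without normalization, 7.39% to 8.02% of them not whole), TPM and FPKM per gene and library. The submitters' processing notes name HISAT and GRCh38.p13, and the counting tool, its strand setting and the annotation are not given in the sources used here. The deposited averages and the FPKM were not used. Plasmid transcripts were not analysed here.

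Estimated counts were rounded, filtered by filterByExpr (minimum count 10, minimum total count 15; 13002 genes kept), normalized by TMM and tested with the robust quasi-likelihood test of edgeR 4.0.16 in R 4.3.3, two-sided, with Benjamini-Hochberg adjustment over all tested genes and a threshold of 0.05. The biological coefficient of variation was 8.83%. Counting error enters the test through the counts. The alternatives were DESeq2 1.42.0, upper-quartile or total scaling, no filter or at least 10 counts in every library, limma 3.58.1 on log2(TPM + 1), the replicate block, a GC correction (an offset per library from a 5 df spline on the GC content of 1 GENCODE 29 transcript per gene), both together, and each library left out in turn. Scripts were tested on simulated data. Promoter sequences came from a RefSeq table of build GRCh38.p14, and 32 of the 39 members matched (among the others were LARS1, VARS1, YARS1, AARS2 and VARS2).

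The members and gene lists were chosen with earlier results of these data known. Full values were given for the 8 members with the smallest p, the 3 highest and 3 lowest by mean TPM in each compartment, AIMP1, AIMP2, FARSA and FARSB, except for 2 members, which enter the counts and medians but are not reported here by gene. Of other lists, the gene with the smallest p and genes past the adjusted p were named, and the other genes given by name were chosen after their values were seen. Figures were drawn with matplotlib 3.10.9.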

Additional observations from a re-analysis of the deposited data

How the results depend on the processing

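The 39 genes gave 0 calls at an adjusted p of 0.05 under each of the 9 alternatives that kept all libraries, and 0 to 7 when 1 library was left out, where the 7 came without RfA1 replicate 2 and the cause was not tested. Over all genes, 10 passed, against 33 with DESeq2, 6 with upper-quartile scaling, 20 with no filter, 4 with limma on log2(TPM + 1), 196 with the GC correction, and 0 to 2636 with 1 library left out. Same-numbered libraries did not all deviate together (correlations 0.17, 0.32 and -0.14), so the numbers were not taken as pairs. With the replicate block 625 genes passed, and 446 with the block and the GC correction. None of the 39 genes passed with the block, and 1 was higher and 4 lower at an unadjusted p under 0.05, against 11.4% and 12.2% of all tested genes. With the block, 3 of the 18 other ATF4-induced genes passed the adjusted p by edgeR (CHAC1 0.0418, NUPR1 0.0402 and DDIT4 0.0438), where 4.81% of all tested genes passed.

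The cytosolic median moved from -0.031 to 0.034 with limma and lay between -0.039 and -0.0097 with 1 library left out. The mitochondrial median moved from -0.017 to 0.038 with limma and lay between -0.076 and 0.018. The cytosolic minus the mitochondrial median was -0.014, against 0.027 with the GC correction, 0.026 with the correction and the block, and -0.032 to 0.045 with 1 library left out. Of the 18 genes with full values, 12 kept their sign throughout. YARS1 changed sign with limma (0.024), the GC correction (0.011) and the correction with the block (0.012), LARS1 with the last 2 (-0.013 and -0.013), AIMP1 (-0.064 and -0.064) likewise, MARS2 with total scaling (0.014) and limma (0.057), and AIMP2 with limma (0.015). With 1 library left out, the log2 fold change ran from -0.0088 to 0.18 for LARS1, -0.076 to 0.098 for MARS2, -0.15 to 0.00036 for PARS2 and -0.085 to 0.026 for AIMP2. The cause of these changes was not tested, and all of them lay within the 95% interval of the value reported.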

Other observations

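Several members share their promoter region with a gene on the other strand. In RefSeq, KARS1 and TERF2IP start 108 bases apart, RARS2 and ORC3 148, WARS1 and WDR25 158, AIMP2 and PMS2 166, SARS2 and MRPS12 181, and FARS2 and LYRM4 57. The antisense gene WARS2-AS1 starts downstream of the start site of WARS2, and overlap of their exons was not examined. Since the strand setting of the counting is not given, whether any reads shared by the 2 were kept apart is not known here.

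The E-box CACGTG, searched on both strands of the promoters, stood in 4 of 32 members (CARS2, EARS2, MARS2 and IARS1), or 12.5%, against 10.3% of the promoters of genes with enough reads. The letters CGCATGCG, the core bound by NRF1, stood in 1 member (MARS2), against 3.93% of those promoters. A match is a description of the letters only.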
